A study of Mus musculus with 4 samples.

Results

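Of 134 mouse protein-coding genes of RNA helicases, splicing factors and Integrator subunits, 22 held at least 1 interval called with the S9.6 antibody in P19 cells. None held an interval in the library made without primary antibody, which was shallower. Over all protein-coding genes the shares were 8.91% with S9.6 and 0.731% without antibody. The 134 are all protein-coding genes on chromosomes 1 to 19, X and Y of mm10 (GRCm38) whose symbols begin with Ddx, Dhx, Hnrnp, Srsf, Sf3a, Sf3b, Prpf, Snrp or Ints, out of 21887 such genes. A gene holds an interval here if at least 1 bp of a called region falls in its body or in the flanking 1000 bp. Membership was decided by the symbol alone.

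CUT&Tag was made in P19, a mouse embryonal carcinoma line, with 1 library per condition. The S9.6 antibody, which binds RNA:DNA hybrids, was used on wild-type cells given a control adenovirus (shCtrl) and on Ube2t knockdown cells given 1 of 2 adenoviruses with different hairpins (shUbe2t #1 and shUbe2t #2). The fourth library came from shCtrl cells without primary antibody and is the control sample of the design. The peak names in its list begin with IgG, so whether a control antibody was added is unsettled, and the label is followed here. All 4 groups had received an adenovirus, and the labels name neither the promoter of the hairpins nor how long the cells were kept after infection. The study asks what part UBE2T, a ubiquitin-conjugating enzyme known from Fanconi anaemia, has in resolving R-loops. Without replicates no test between conditions was possible, and every difference below is one between libraries. Intervals in brackets after shares and counts are exact 95% binomial or Poisson intervals and cover counting error only.

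R-loops form when nascent RNA pairs again with its template strand behind RNA polymerase. Proteins that coat or splice the transcript (hnRNPs, SR proteins and snRNPs) keep RNA away from DNA, and several DEAD-box and DEAH-box helicases can unwind RNA:DNA hybrids. Integrator is a large complex bound to RNA polymerase II that cleaves the RNA of small nuclear RNA genes and of polymerases paused near start sites. The data here concern the genes that encode these proteins as DNA loci, not the amount or activity of the proteins.

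The S9.6 lists held 1263 (shCtrl), 1519 (shUbe2t #1) and 1640 (shUbe2t #2) distinct intervals, and the no-antibody list 516. The lowest local background, which scales with the number of fragments, put the depth of the last 3 at 92.2%, 93.6% and 58.7% of shCtrl. Neither Ube2t nor the pluripotency genes Pou5f1, Nanog, Sox2, Lin28a and Dppa5a held an interval in any list, so neither the knockdown nor the identity of the cells could be read from these files.

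Stretches of DNA in front of 4 of the genes show where the called intervals lay. They come from a gene called in all 3 S9.6 libraries (Hnrnpa2b1), one called with both hairpins (Ddx42), one called in shUbe2t #1 alone (Ints3) and one in shUbe2t #2 alone (Sf3b2). The capitals at Ddx42 mark its shUbe2t #2 interval at the start site, and the interval called with both hairpins lies before the printed stretch. Sequences are from RefSeq's promoter windows on GRCm38.p6, limited to bases outside every annotated gene body and written 5′ to 3′ on the strand of the gene, with capitals for bases inside a called S9.6 interval of any library.
Hnrnpa2b1, chr6:51470049-51470144, minus strand: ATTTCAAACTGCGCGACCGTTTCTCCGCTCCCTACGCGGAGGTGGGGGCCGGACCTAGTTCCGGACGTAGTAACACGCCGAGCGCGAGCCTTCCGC
Ddx42, chr11:106216676-106216886, plus strand: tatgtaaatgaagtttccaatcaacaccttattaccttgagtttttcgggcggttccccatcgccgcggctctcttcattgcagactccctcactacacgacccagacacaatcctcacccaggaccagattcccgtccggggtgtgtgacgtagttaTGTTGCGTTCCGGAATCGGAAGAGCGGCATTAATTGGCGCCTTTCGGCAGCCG
Ints3, chr3:90433637-90433886, minus strand: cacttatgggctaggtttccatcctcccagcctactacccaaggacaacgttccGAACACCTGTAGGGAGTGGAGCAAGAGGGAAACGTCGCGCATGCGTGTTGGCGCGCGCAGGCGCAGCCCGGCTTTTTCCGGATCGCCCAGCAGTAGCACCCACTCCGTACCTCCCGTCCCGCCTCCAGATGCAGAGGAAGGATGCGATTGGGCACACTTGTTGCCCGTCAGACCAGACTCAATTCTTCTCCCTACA
Sf3b2, chr19:5295458-5295705, minus strand: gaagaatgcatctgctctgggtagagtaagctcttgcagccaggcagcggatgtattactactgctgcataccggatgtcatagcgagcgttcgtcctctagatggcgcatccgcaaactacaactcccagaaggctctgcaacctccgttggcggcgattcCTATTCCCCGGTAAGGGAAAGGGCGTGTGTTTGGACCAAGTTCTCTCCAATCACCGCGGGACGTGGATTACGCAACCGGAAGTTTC
All 96 bases at Hnrnpa2b1 lay inside an interval, against 53 of 211 at Ddx42, 196 of 250 at Ints3 and 86 of 248 at Sf3b2. The marked stretches ran up to the side of the gene in each of the 4.

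In the control cells 7 of these genes held an interval, with the hairpins 12 (#1) and 14 (#2), and without antibody 0. In shCtrl the share was 5.22% (2.13 to 10.5), where 3.07% of all protein-coding genes held an interval. In shUbe2t #1 it was 8.96% (4.71 to 15.1) against 4.95%, and in shUbe2t #2 10.4% (5.83 to 16.9) against 5.42%. The shCtrl and shUbe2t #1 intervals include the share of all genes, and that of shUbe2t #2 lies just above it. Without antibody, 0 of 134 allows a share of up to 2.72%, and 0.731% of all protein-coding genes held an interval. Over any S9.6 list, 22 of the 134 held an interval (16.4%, 10.6 to 23.8), against 8.91% of all protein-coding genes and 9.09% of other genes weighted to the same lengths. The higher share with the hairpins than in shCtrl was also seen over all protein-coding genes, and whether it was larger in the 134 genes was not tested. When the lists were cut to equal length, keeping the best by p, the counts were 7, 8 and 12, beside 3.07%, 3.98% and 4.1% of all genes. At a stricter deposited −log10 q of at least 5 they were 3, 2 and 6, beside 1.11%, 1.91% and 2.15%, so shUbe2t #1 no longer lay above shCtrl. With each interval given to 1 gene only, they were 4, 6 and 11, beside 2.54%, 4.03% and 4.42%.

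Gene length and promoter CpG content were set beside these counts. The 134 genes had a median length of 19595 bp, against 17140 bp for the other 21753 protein-coding genes. Weighting the other genes to the lengths of the 134 gave expected shares of 2.89%, 5.08%, 5.60% and 0.532% in shCtrl, shUbe2t #1, shUbe2t #2 and the no-antibody list, close to the unweighted ones. Longer genes held more intervals. When the 134 were divided by length into 4 classes, in the longest (34403 bp and over), 11 of 34 genes held an S9.6 interval in any list, against 14.3% of other genes of that length. From the shortest class up, the counts in the others were 3 of 34, 4 of 33 and 4 of 33, against 3.67%, 8.68% and 10.4% of other genes.

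Weighting by promoter CpG moved the share of other genes more than weighting by length did. Of the 134 genes, 116 matched the promoter table, and 4.31%, 7.76% and 9.48% of these held an interval in shCtrl, shUbe2t #1 and shUbe2t #2. Other genes weighted to the same CpG counts reached 4.45%, 7.64% and 8.17%, a weighting chosen after the data were examined. Over any S9.6 list the shares were 16.4% of the 116 genes and 13.3% of the weighted other genes. Each CpG-weighted share lies inside the exact interval of the 134 genes given above, for the 3 libraries and for any list. The weighting rests on the 116 genes, for which no exact interval was computed, so the sets differ.

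**Figure D1:**
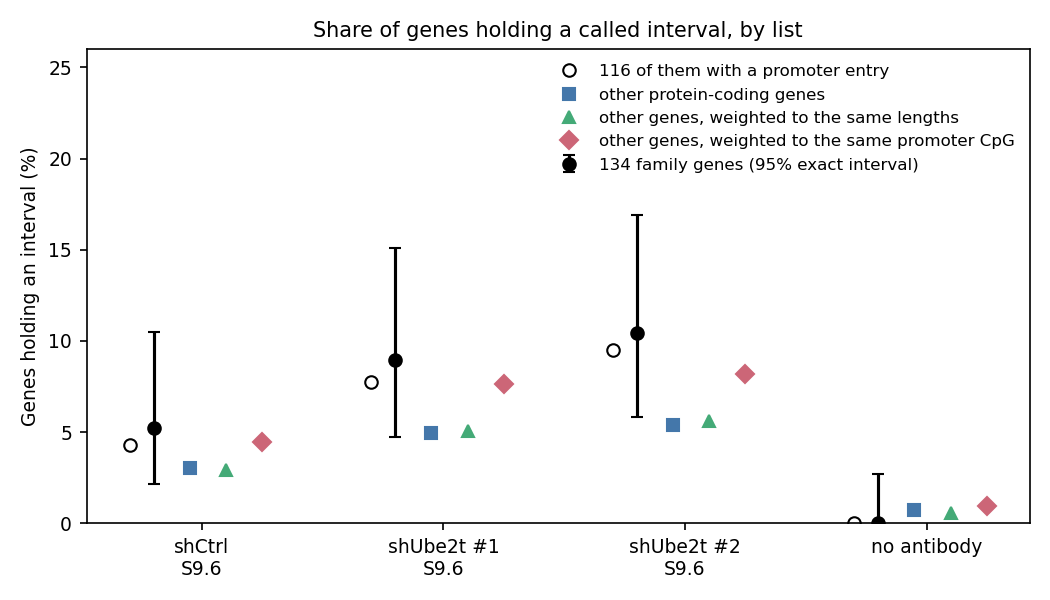
Percent of genes holding a called interval in each of the 4 lists. Filled circles are the 134 genes with exact 95% intervals, open circles the 116 with a promoter entry, and the other markers the remaining protein-coding genes as they are, weighted to the same lengths and weighted to the same promoter CpG. The open circles lie at 4.31%, 7.76% and 9.48% in the S9.6 lists and the CpG-weighted markers at 4.45%, 7.64% and 8.17%.

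The calls were also counted in each of the 9 symbol families. The exact intervals of the families overlap, and differences between families were not tested. Among Hnrnp genes 7 of 21 held an S9.6 interval in any list (33.3%, 14.6 to 57.0), among Ints genes 5 of 15 (33.3%, 11.8 to 61.6) and among Sf3b genes 2 of 6 (33.3%, 4.33 to 77.7). Ddx genes gave 5 of 37 (13.5%, 4.54 to 28.8), Dhx genes 1 of 16, Prpf genes 1 of 13 and Snrp genes 1 of 12. None of the 11 Srsf genes and none of the 3 Sf3a genes held an interval, which allows shares of up to 28.5% and 70.8%. Over all protein-coding genes, 8.91% held an S9.6 interval in any list. For other genes weighted to the promoter CpG of the family genes the share was 13.3%, and no such weighting was made for single families. The families were compared after their counts were known, and Ints genes are long (median 42257 bp) while Srsf genes are short (7290 bp).

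**Figure D2:**
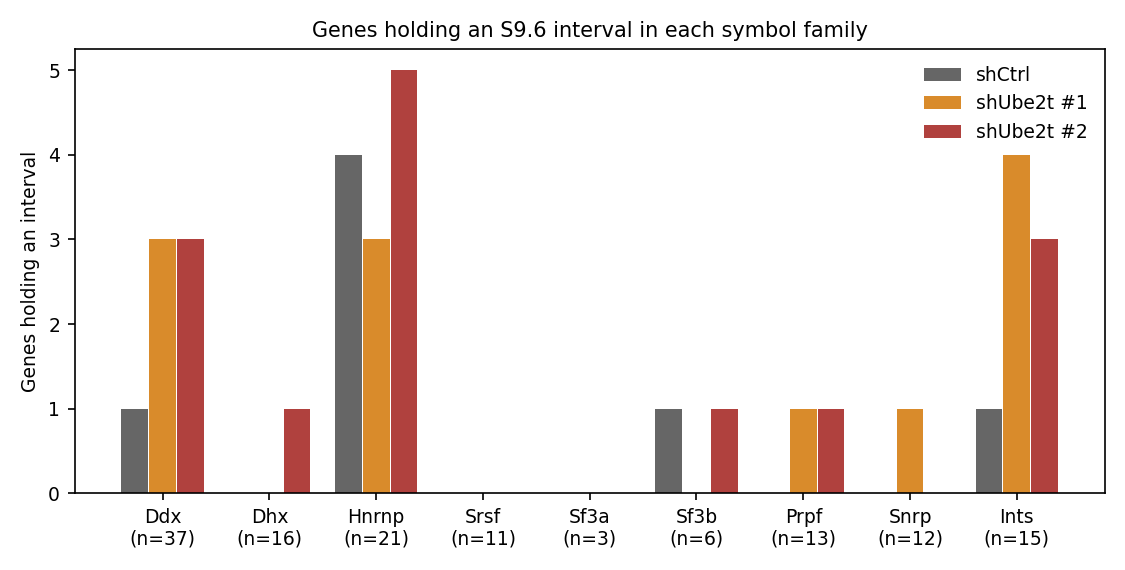
Number of genes holding an S9.6 interval in each symbol family, with the family size under each name and 1 bar per library. Ints genes go from 1 in shCtrl to 4 and 3 in the hairpin libraries, Hnrnp genes stand at 4, 3 and 5, and Srsf and Sf3a genes have no bars. Over all protein-coding genes the shares are 3.07%, 4.95% and 5.42% in the same order. With each interval given to 1 gene only, the Ints genes left are Ints3 in shUbe2t #1 and Ints6 in shUbe2t #2.

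Across libraries, 3 genes (2.24%) held an interval in all 3 S9.6 lists, against 1.34% of all protein-coding genes. Another 3 held one with both hairpins and not in shCtrl (1.16% of all genes), 2 in shCtrl alone (1.03%), 2 in shCtrl and shUbe2t #2 (0.425%), 0 in shCtrl and shUbe2t #1 (0.27%), 6 in shUbe2t #1 alone (2.19%) and 6 in shUbe2t #2 alone (2.5%). These numbers of genes are too few for any one combination to be set apart from the share of all genes. The exact interval of the 2.24% with both hairpins and not shCtrl, for example, runs from 0.464 to 6.40.

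Signal at each gene is given as the number of fragments stacked at the called summit, recovered from the deposited fold and p, and as the authors' fold enrichment over the local background. In shCtrl they held 9 to 15 fragments (median 14) with folds of 3.43 to 6.11. In shUbe2t #1 they held 9 to 20 (median 13) with folds of 3.46 to 6.69, and in shUbe2t #2 11 to 24 (median 14) with folds of 3.74 to 8.33. The smallest summit called anywhere in an S9.6 list held 8 fragments. Ranked by fold within their lists, the summits had a median percentile of 61.0 for shCtrl, 27.5 for shUbe2t #1 and 49.5 for shUbe2t #2. The highest were those of Ints9 (87.6) and Ddx59 (83.8) in shUbe2t #2 and of Ints7 (81.0) in shUbe2t #1.

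**Figure D3:**
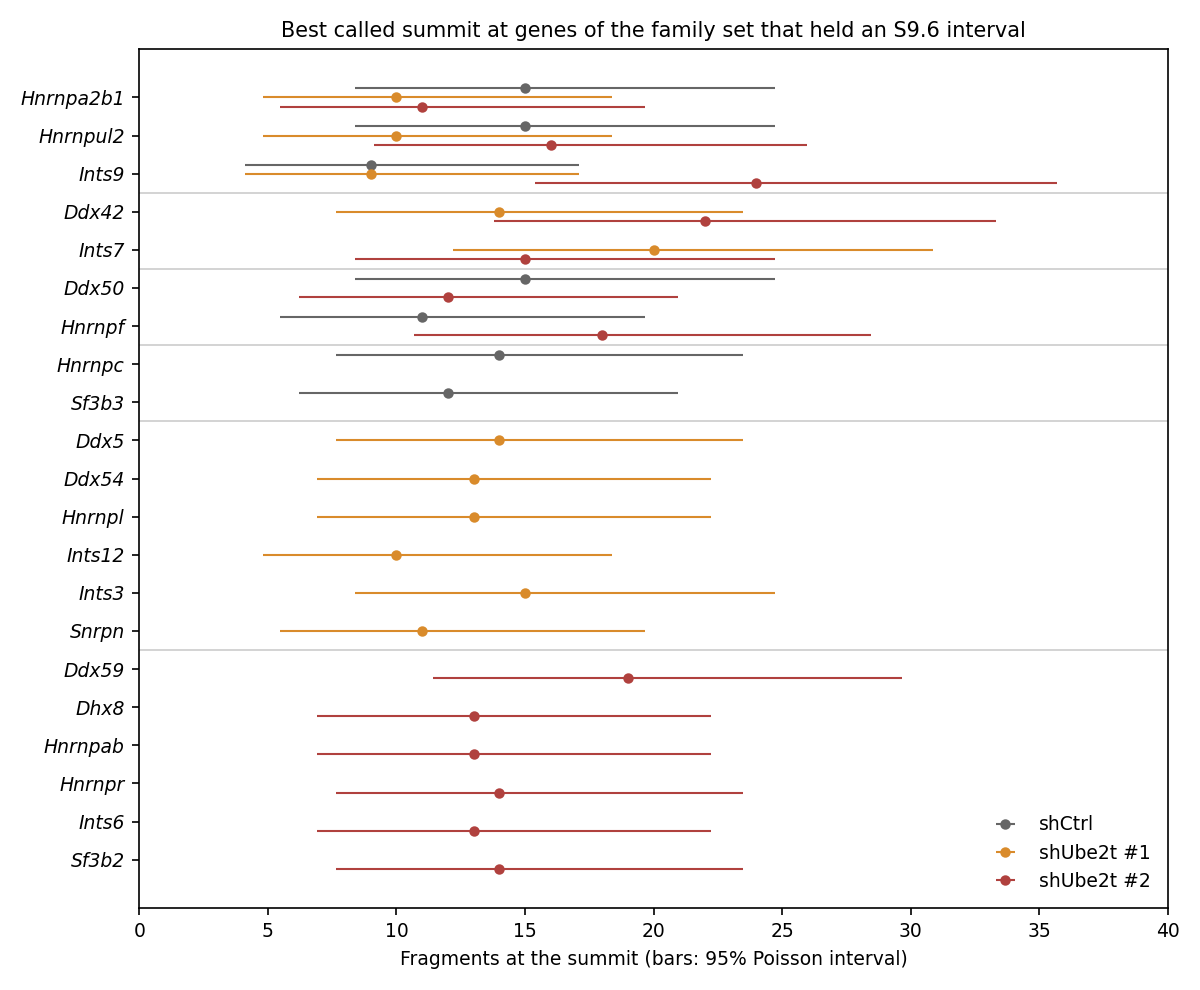
Fragments at the best called summit of each gene described here that held an S9.6 interval, with 95% Poisson intervals, in the 3 S9.6 libraries. Grey lines separate the combinations of libraries that called each gene, and a missing point means no call, not 0 fragments. Ints9 in shUbe2t #2 has the highest summit, with 24 fragments.

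Genes called in all 3 S9.6 libraries come first. At Hnrnpa2b1 (gene 53379, chromosome 6), which encodes an abundant pre-mRNA binding protein, the shCtrl summit held 15 fragments, that of shUbe2t #1 held 10 and that of shUbe2t #2 held 11. The folds were 5.33, 3.77 and 4.29 in that order, so shCtrl was the highest of the 3. Scaled for depth, the hairpin summits were 0.723 (0.290 to 1.72) and 0.784 (0.326 to 1.83) times that of shCtrl, intervals that include no change. The shCtrl interval (51469896 to 51470334) covered the annotated start side of the gene and came within 1000 bp of an end of Cbx3, a heterochromatin protein gene.

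Hnrnpul2 (gene 68693, chromosome 19) encodes an hnRNP U-like protein. Its summits held 15, 10 and 16 fragments in shCtrl, shUbe2t #1 and shUbe2t #2, with folds of 5.30, 3.46 and 5.15. The hairpin libraries stood at 0.723 (0.290 to 1.72) and 1.14 (0.528 to 2.48) times the depth-scaled pileup of shCtrl, intervals that include no change. By fold both lay below shCtrl. The intervals were also near an end of Ttc9c.

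Ints9 (gene 210925, chromosome 14) encodes the partner of INTS11 in the RNA-cleaving module of Integrator. Its summits held 9, 9 and 24 fragments in the same order, with folds of 3.97, 3.65 and 8.33. The shUbe2t #2 summit, the highest at any of these genes, was 2.85 (1.28 to 6.97) times shCtrl and 2.63 (1.18 to 6.43) times shUbe2t #1 after scaling. Both ratios rest on the same summit and were the largest computed at these genes. By deposited fold they were 2.1 and 2.28. The shUbe2t #1 summit was 1.08 (0.381 to 3.08) times that of shCtrl, so the higher signal was seen with 1 hairpin of 2. The interval lay beside the gene, 47 bp from its end in shUbe2t #2, and was also near an end of Hmbox1. With each interval given to 1 gene only, Ints9 held none.

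Ints7 and Ddx42 were among the genes called with both hairpins and not in shCtrl. At Ints7 (gene 77065, chromosome 1, interval 191575581 to 191576048 in shUbe2t #1), the gene of another Integrator subunit, the summit held 20 fragments with shUbe2t #1 and 15 with shUbe2t #2, with folds of 6.69 and 5.30. The same signal per depth would have been 1.97 and 1.60 times the smallest pileup callable in shCtrl. The summits lay 82 and 93 bp after the annotated start site and near an end of Dtl. Ints7 held none when each interval was given to 1 gene only.

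Ddx42 (gene 72047, chromosome 11) encodes a DEAD-box helicase that associates with the SF3B complex. It held an interval at 106216355 to 106216559 in shUbe2t #1, with 14 fragments and a fold of 4.41. In shUbe2t #2 the interval starting at the same base held 14 fragments with a fold of 3.91, and a further one at 106216834 to 106217106 held 22 with a fold of 5.99. The higher summit, 21 bp after a start site, was called with 1 hairpin. The lower one, beside the gene and within 1000 bp of an end of Ccdc47, was called with both. Against the smallest callable pileup of shCtrl the best summits stood at 1.38 times (shUbe2t #1) and 1.96 times (shUbe2t #2). The value of 1.96 belongs to the interval called with shUbe2t #2 alone. No margin was computed for the shUbe2t #2 summit of 14 fragments at the interval called with both hairpins. For the best summits at Ints7 and Ddx42, the same signal per depth would have passed the shCtrl threshold by a factor of 1.38 to 1.97.

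Ddx50 and Hnrnpf were called in shCtrl and shUbe2t #2. At Ddx50 (gene 94213, chromosome 10), the gene of a nucleolar helicase, the summits held 15 and 12 fragments, with folds of 6.11 and 4.81. The scaled ratio of shUbe2t #2 to shCtrl was 0.855 (0.365 to 1.96). At Hnrnpf (gene 98758, chromosome 6), whose protein binds G-rich RNA, the summits held 11 and 18 fragments, with folds of 3.43 and 4.90. The 2 Hnrnpf intervals did not overlap: the shCtrl one ended at 117907424 and the shUbe2t #2 one began at 117907436. Both came within 1000 bp of an end of 4933440N22Rik, and Hnrnpf held none when each interval was given to 1 gene only.

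In shCtrl alone, Hnrnpc (gene 15381), which encodes a protein that binds uridine tracts and guards against cryptic splicing, had a summit of 14 fragments and a fold of 5.28. Its interval lay 254 bp outside the gene and within 1000 bp of an end of Rpgrip1. Hnrnpc held none when each interval was given to 1 gene only. Sf3b3 (gene 101943), a subunit gene of the SF3B complex of U2 snRNP, had 12 fragments and 4.74, in its body 13758 bp from the nearer end. Against the smallest pileups callable in shUbe2t #1 and shUbe2t #2, they stood at 1.43 and 1.46 times for Hnrnpc and 1.23 and 1.25 times for Sf3b3.

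In shUbe2t #1 alone there were 6 genes. Ints3 (gene 229543, chromosome 3, 90433547 to 90433832), whose protein also belongs to a single-stranded DNA sensing complex, had the strongest summit, with 15 fragments and a fold of 5.88. It was the only one of the 6 with a margin over 1.5, at 1.63 times the smallest callable pileup of shCtrl and 1.69 times that of shUbe2t #2. Hnrnpl, whose protein binds CA repeats, and the nucleolar helicase gene Ddx54 had 13 fragments each, with folds of 4.86 and 4.46. Ints12, which encodes an Integrator subunit with a PHD finger, had 10 fragments and a fold of 4.04. Snrpn, an imprinted gene for a core spliceosomal protein, held 2 intervals of 11 fragments each (folds 4.96 and 3.82) in an annotated body of 467683 bp, 1 of them near an end of Snurf. Ddx5, named here after its value was seen, had 14 fragments and a fold of 3.93 at an interval 459 bp outside the gene, beside the end away from its start site and near Polg2.

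In shUbe2t #2 alone there were also 6. Ddx59 (gene 67997, chromosome 1, 136415128 to 136415338) had the strongest, with 19 fragments and a fold of 7.04, at 2.03 times the smallest callable pileup of shCtrl and 2.08 times that of shUbe2t #1. Thus the strongest single-library call at these genes was free of a call with the other hairpin by about the same margin as in control cells. Sf3b2, an SF3B subunit gene, and Hnrnpr each had 14 fragments (folds 4.90 and 4.60). Ints6 and Dhx8, whose protein releases the spliced message from the spliceosome, each had 13 fragments (4.86 and 4.58). Hnrnpab, named after its value was seen, had 13 fragments and a fold of 3.74.

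Over all calls made with a hairpin and absent from shCtrl, the best summit stood at a median of 1.33 times the smallest callable shCtrl pileup at the 9 genes of shUbe2t #1 and 1.5 times at the 9 genes of shUbe2t #2, and the margin passed 1.5 at 2 and 3 genes. None of these margins was below 1. That was nearly fixed in advance, because shCtrl was the deepest library and the lists had similar lowest p. In the other direction, the 4 shCtrl genes absent from shUbe2t #1 had a median of 1.33, from 0.922 at Hnrnpf to 1.54 at Ddx50. A call needs to pass the threshold, so margins above 1 are partly set by the call itself. Summits were scaled up in depth in the first direction and down in the other, so the directions cannot be set against each other.

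Absence from the no-antibody list carried less information, because that library was shallower. Scaled to its depth, 15 of the 33 best summits (1 per gene and S9.6 library) would have fallen below the smallest pileup callable there, and the median summit stood at 1.02 times that pileup. The highest was Ints9 in shUbe2t #2, at 1.88 times. The no-antibody interval nearest to any S9.6 interval at these genes lay 70.7 kb away, from Ints7.

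The 1000 bp limit left a gap around it. The farthest interval counted outside a gene body was the one 459 bp from Ddx5. The nearest ones not counted were 1910 and 1927 bp from Hnrnpu (shUbe2t #2, fold 4.23, and shCtrl, fold 5.19), then 2328 bp from Prpf31 (shUbe2t #2, 4.06). Dhx33 had intervals of all 3 libraries at 4447 to 4482 bp. Their folds were 5.85 (shCtrl), 6.22 (shUbe2t #1) and 6.38 (shUbe2t #2).

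The called summits lay mostly just in front of annotated start sites. Of 27 intervals at genes with a start site in the promoter table, 24 had their summit within 1000 bp of one, 18 before it and 6 after, with a median position of -122.5 bp, negative meaning before the start. By library the numbers were 4 of 5 in shCtrl, 8 of 10 in shUbe2t #1 (80.0%, 44.4 to 97.5) and 12 of 12 in shUbe2t #2 (73.5 to 100). At the other protein-coding genes 55.6%, 72.6% and 74.7% of such intervals were within 1000 bp of a start site, and 17.5% without antibody. Of the summits near start sites at other genes, 24.8% lay after the start in each hairpin library, 25.1% in shCtrl and 25% (6 of 24) without antibody. Among summits near a start, lying in front of it was therefore common to all 4 lists. The exceptions among the family genes were Ddx5, Sf3b3 and 1 of the Snrpn intervals.

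**Figure D4:**
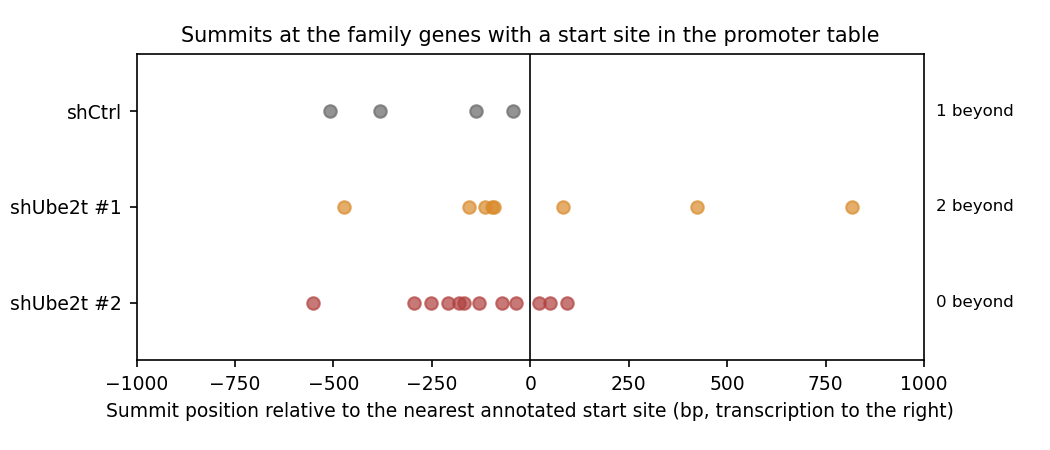
Position of each called summit relative to the nearest annotated start site, in bp with transcription to the right, for the 3 S9.6 libraries. Of the 24 summits within 1000 bp, 18 lie before the start, and 3 lie farther away.

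Many of the 22 genes lie close to a neighbour. At 14 of them an interval also came within 1000 bp of an end of another gene. Among the 19 with a promoter entry, 7 had a start site in the opposite direction within 1000 bp in front of theirs (36.8%, 16.3 to 61.6), against 25 of 97 of the family genes without an interval (25.8%, 17.4 to 35.7) and 13.1% of all protein-coding genes. At Ddx5 and Sf3b3, counted among the 7, the called interval was not at that start. Other genes with an S9.6 interval had such a partner in 25.5% of cases. At such pairs, for example Ints7 with Dtl, Ints12 with Gstcd, Ddx54 with Rita1 and Ddx42 with Ccdc47, an interval cannot be given to one gene.

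The promoter windows of the 22 genes (300 bp, from 250 bp before the start to 50 bp after) were close in CpG to those of the rest of the families. With the windows of a gene averaged, the 19 matched genes had a median of 23 CpG and a GC content of 60%, the 97 without an interval 24 and 60.3%, and all protein-coding genes 13 and 56.3%. Holding an interval rose with CpG count over all genes. With all genes divided by CpG into 5 classes, from the lowest class to the highest 1.85%, 3.81%, 10.5%, 15.1% and 14.4% of other protein-coding genes held an S9.6 interval in any list. The family genes had 0 members in the lowest class and then 1 of 8, 2 of 13, 9 of 51 and 7 of 44 holding an interval. Most of the family genes, 51 and 44 of the 116, thus sat in the top classes, where intervals were most frequent.

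**Figure D5:**
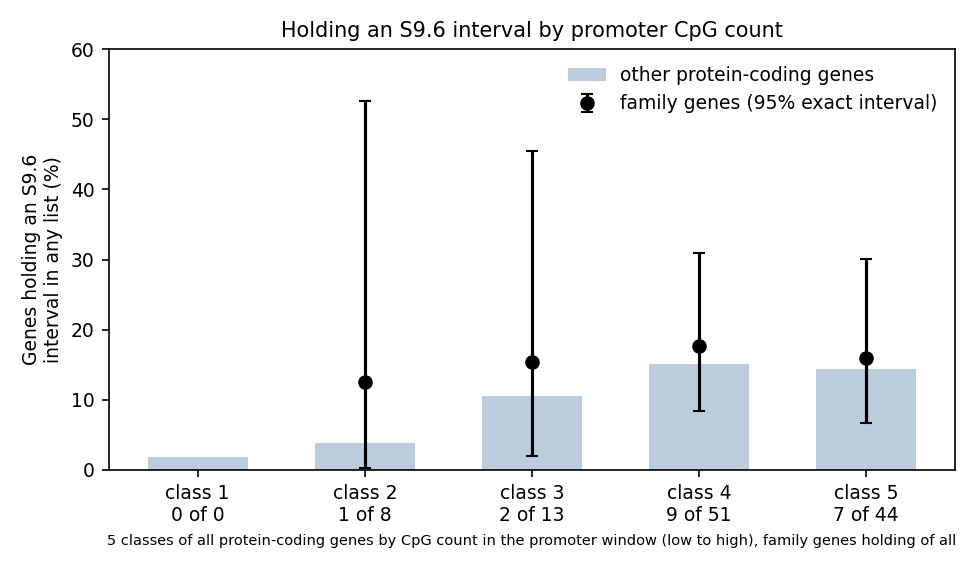
Percent of genes holding an S9.6 interval in any list, in 5 classes of all protein-coding genes ranked by CpG count in the promoter window. Bars are other protein-coding genes and points the family genes with exact 95% intervals. In the highest 2 classes the bars stand at 15.1% and 14.4% and the points at 17.6% and 15.9%.

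Short motifs were counted on both strands of the windows, as a description. CCAAT was in 19 of 32 windows of the genes with an interval (59.4%), in 46.6% of the 116 windows of family genes without one and in 38.2% of all 21263 windows. The GC box GGGCGG was in 43.8%, 67.2% and 46.2%. The letters GGGGG, which can overlap a GC box, were in 75%, 49.1% and 54.9%, and the ETS core CCGGAAG in 34.4%, 31.9% and 11.6%. The NRF1 motif was in none of the 32, in 4.31% of the 116 and in 1.33% of all windows. The TATA letters TATAAA were in 15.6%, 7.76% and 12.6%. In windows of other protein-coding genes with an interval, CCAAT was in 46.7%, the GC box in 65.4%, GGGGG in 66.0%, CCGGAAG in 14.3% and TATAAA in 5.68%. Windows of 1 gene overlap where start sites are close, so these are not independent counts. Counted by gene, the GC box was in 57.9% of the family genes with an interval, 71.1% of those without and 49.2% of all genes. In the same order CCAAT was in 78.9%, 48.5% and 42.3%, and TATAAA in 26.3%, 9.28% and 14.8%. GGGGG was in 78.9%, 52.6% and 56.6%, and CCGGAAG in 42.1%, 34.0% and 12.9%. In the Ints3 stretch printed above, the interval covered the last 196 bases before the start.

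Other genes of these pathways, from lists of symbols outside the families, were looked up in the same way. The lists were chosen with earlier results of these data known, and no weighting by length or promoter CpG was made for them. Their shares are therefore descriptions only. Of 46 genes of Integrator partners, polymerase pausing and 3′ end processing, 11 held an S9.6 interval in any list (23.9%, 12.6 to 38.8), beside 8.91% of all protein-coding genes. Control cells had 5 of them, the hairpin libraries 5 (#1) and 8 (#2), and the no-antibody library 0. Of all protein-coding genes, 3.07%, 4.95%, 5.42% and 0.731% held an interval in the same order. Nabp2, whose protein forms the single-stranded DNA sensing complex with INTS3, was called in all 3 S9.6 libraries with 17, 23 and 15 fragments in shCtrl, shUbe2t #1 and shUbe2t #2. Brat1, whose protein binds Integrator, had 15, 17 and 22, and Zfp473, whose protein works in histone 3′ end processing, 14 in each library. Nabp2 was highest with hairpin 1 and Brat1 with hairpin 2. Pcf11, a termination factor gene, was called in shCtrl (13 fragments) and shUbe2t #1 (9), Inip in shCtrl alone (12) and Casp8ap2 in shUbe2t #1 alone (10). Called in shUbe2t #2 alone were the elongation factor gene Supt6 (17 fragments), the polymerase II large subunit gene Polr2a (19), Hexim1 (16), Nudt21 (14) and the termination exonuclease gene Xrn2 (14).

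Of 88 other spliceosome and RNA-binding protein genes, 9 held an S9.6 interval (10.2%, 4.78 to 18.5), near the 8.91% of all genes. Raly, an hnRNP gene outside the Hnrnp symbols, was the only one called in all 3 libraries, with 14, 22 and 15 fragments in shCtrl, shUbe2t #1 and shUbe2t #2. Luc7l2, a U1 snRNP factor gene, was called with both hairpins and not in shCtrl (11 and 13 fragments). Ncl, the nucleolin gene, was called in shCtrl (17) and shUbe2t #2 (12). Of 31 genes on a list of other RNA, R-loop and DNA helicases and DNA translocases, 3 held an interval (9.68%, 2.04 to 25.8), 1 in each S9.6 library. Hltf was called in shCtrl (8 fragments) and Eif4a1 in shUbe2t #1 (20). No gene of the 3 lists held a no-antibody interval, where 0.731% of all protein-coding genes held one.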

How the data were processed

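Each of the 3 S9.6 CUT&Tag libraries and the no-antibody control has its own peak list, and 11 PCR cycles amplified each library, per the labels' protocols. The submitters' processing notes list Trimmomatic, MACS2 2.1.2, Bowtie with version 0.7.12 and the build mm10. Not given in the sources used here are the settings, the handling of duplicates and whether a control entered peak calling. The authors' value for a summit is a fold enrichment, a ratio over local background, with p and q deposited as −log10. Folds describe peaks within a list only.

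Summits sharing an interval were reduced to the best by p. Summit pileup and local background were solved from fold and p, with 1 added to each for the fold and p read as a Poisson tail. At least 92.9% of summits in each list, and all those at the 134 genes, matched a whole pileup within 0.001 in −log10 p. The solving and overlap steps were checked on simulated data. Pileups were scaled by the lowest background of the library, and the number of fragments per library is unknown. A margin is the pileup, at the depth of a library without the call, over the smallest pileup that would reach its lowest deposited p on the same scaled background. Gene positions, promoter windows and sequences were RefSeq's for GRCm38.p6, the build equal to mm10. Weighted shares average the other genes over 10 classes of length or 5 of promoter CpG.

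The genes and lists were chosen with earlier results of these data known. Named genes were those with S9.6 calls in 2 or 3 libraries and, of those called in 1, the 5 of highest fold per list. A few genes that this rule or the lists would name are not reported here. Python 3.11.15, pandas 2.3.3 and SciPy 1.17.1 were used. Alternatives were a −log10 q of at least 5, 0 or 5000 bp beside the gene, at least 50% of the interval inside, lists of equal length, 1 gene per interval, deposited folds in place of pileups and other weightings.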

Additional observations from a re-analysis of the deposited data

How the results depend on the processing

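No paired analysis was possible because each condition had 1 library. For the same reason no library could be left out in turn. With at least 50% of the interval inside the widened gene, every count of genes kept its value, and with 5000 bp beside the gene every count stayed within 1.5 times. At −log10 q of 5 or more the genes holding an interval fell to 3, 2 and 6 in shCtrl, shUbe2t #1 and shUbe2t #2 (1.11%, 1.91% and 2.15% of all protein-coding genes), the same numbers free of no-antibody intervals, so that shUbe2t #1 no longer exceeded shCtrl. At that threshold 0 genes were in all 3 lists, 1 with both hairpins and not shCtrl, 1 in shUbe2t #1 alone and 1 in shCtrl and shUbe2t #2. With 1 gene per interval the counts were 4, 6 and 11 (2.54%, 4.03% and 4.42% of all protein-coding genes), again also free of no-antibody intervals, with 1 gene with both hairpins and not shCtrl, 1 in shCtrl alone, 3 in shUbe2t #1 alone and 1 in shCtrl and shUbe2t #2. Without the 1000 bp beside the gene, shCtrl alone kept 1. With lists of equal length 0 genes were in all 3 and 4 in shCtrl and shUbe2t #2. For these combinations of libraries, shares of all protein-coding genes were computed only before the settings were changed. Whether the changes in the combination counts were particular to the family genes was therefore not tested. Deposited folds gave ratios within the counting interval of the pileup ratio at every gene.

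The length-weighted shares of other genes, in the order shCtrl, shUbe2t #1, shUbe2t #2 and no antibody, became 1.96%, 4.03%, 4.53% and 0.123% when an interval had to come within 1000 bp of a gene end, where 4, 10, 12 and 0 of the 134 genes held one. With CpG classes they were 4.45%, 7.64%, 8.17% and 0.940%, and with length crossed with CpG 4.02%, 7.17%, 7.82% and 0.681%. With Gm and Rik genes left out they were 2.81%, 5.18%, 5.73% and 0.484%, near those reported, and with 5 length classes 3.06%, 5.15%, 5.67% and 0.615%. The cause of these moves was not tested beyond the weighting itself. Single summits of 9 to 24 fragments and 1 library per condition limit every comparison of genes.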
